A study of Mus musculus with 12 samples.

Results

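The genes described here are the Wnt ligands, the Frizzled receptors, the secreted antagonists of the Sfrp and Dkk families with Frzb and Wif1, and the co-receptor Lrp6. The families were chosen with earlier results of these data known, and their members were then taken by gene symbol. All symbols of these families in the reference annotation made 41 genes, of which 40 had a probe on the array, among 19096 genes with a symbol there. These are 19 Wnt ligands, 10 Frizzled receptors, 10 antagonists and Lrp6, and Lrp5 was not analysed here. Of the 40 genes 35 were tested, out of 20875 tested in all. The other 5, the ligands Wnt7a, Wnt8a, Wnt8b and Wnt10b and the antagonist Dkk4, were not well above background on enough arrays.

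Wnt proteins are secreted, lipid-modified ligands. They bind Frizzled receptors and the co-receptors Lrp5 and Lrp6, and in the canonical branch this stabilises beta-catenin, which then acts with Tcf/Lef factors on transcription, while other branches act on cell polarity and calcium. Secreted antagonists limit the signal in different ways: Sfrp proteins, Frzb and Wif1 bind the ligands, and Dkk1 binds the co-receptors. In the embryo canonical Wnt signals are needed for mesoderm to form, are then limited where the heart is specified, and non-canonical ligands such as Wnt11 and Wnt5a take part in heart formation.

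The study hybridised 12 Agilent arrays in a single colour, 4 for each of 3 groups: mouse embryonic stem cells (mESC), and cells taken 9 and 14 days into a cardiomyocyte differentiation (day 9 and day 14). The labels give 1 culture text for all samples: seeding on a coat of crosslinked elastin-like polypeptide (a polymer of elastin-derived repeats), then 2 days in stem cell medium lacking LIF, the cytokine that keeps mouse stem cells undifferentiated, and then 12 days in GMEM with knock serum replacement. The text does not set the mESC group apart, and no genotype, strain or added cardiac factor is named in it. The series title speaks of embryonic and of induced pluripotent cells, while the sample labels name embryonic stem cells only. The labels do not say that replicates were separate cultures, so the p-values speak of the scatter among these arrays, and that scatter may be technical.

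Each group lay on a slide and a scan of its own, and slide effects and group differences cannot be told apart. The processed signal at the 75th percentile of an array was 346.8 to 386.4 in mESC, 394.9 to 438.5 on day 9 arrays and 462.7 to 507.9 on day 14 arrays. Between 59.5% and 67.9% of probes on an array passed the background test of the Agilent Feature Extraction software ("well above background"). The summed signal of 8 markers of pluripotent cells, relative to the 75th percentile, was 290 to 301 in mESC. It was 7.69 to 9.5 on day 9 arrays and 9.3 to 10.7 on day 14 arrays. For 10 cardiomyocyte markers the sums, in the same order of groups, were 5.37 to 6.1, 214 to 415 and 214 to 281.

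Signals below are log2 processed signal minus the 75th percentile of the same array, so 0 stands for that percentile. A level is compared only with the same gene on other arrays, since probes differ in brightness. Changes are log2 fold changes ± SE from limma with n = 4 arrays a group. The words rose and fell, and the word called, stand for an adjusted p under 0.05 together with a log2 change of 1 or more in size. For a gene whose probes all failed the background test throughout a group, a bound ("at least N-fold") replaces the change, taken against the lowest signal that passed the test on those arrays. A bound holds for the processed signal and not for other background corrections. The adjusted p beside a bound belongs to the fitted change. In such bulk RNA a larger share of cells of a type and more RNA per cell cannot be told apart.

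The upstream sequences of 6 genes are shown because the results below turn on these genes: Wnt2 and Wnt4 are the ligands with the highest bounds on their increase over mESC, Fzd1 is the receptor with the largest increase, Fzd10 is the receptor with the largest decrease, and Dkk1 and Dkk2 are related antagonists that rose together and then parted. Each is the 250 bases before the annotated start, 5′ to 3′ on the strand of the gene, from RefSeq on the build GRCm38.p6. Capitals mark the core of Tcf/Lef sites (CTTTGA, or TCAAAG on the other strand) and the GC box (GGGCGG, or CCGCCC).
Wnt2 (chr6:18030446-18030695, minus strand): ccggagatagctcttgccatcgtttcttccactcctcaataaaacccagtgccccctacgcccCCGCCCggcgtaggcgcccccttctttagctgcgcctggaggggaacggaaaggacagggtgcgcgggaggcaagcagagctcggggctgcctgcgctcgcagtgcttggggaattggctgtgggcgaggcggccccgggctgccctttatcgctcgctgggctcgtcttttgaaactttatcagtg
Wnt4 (chr4:137277385-137277634, plus strand): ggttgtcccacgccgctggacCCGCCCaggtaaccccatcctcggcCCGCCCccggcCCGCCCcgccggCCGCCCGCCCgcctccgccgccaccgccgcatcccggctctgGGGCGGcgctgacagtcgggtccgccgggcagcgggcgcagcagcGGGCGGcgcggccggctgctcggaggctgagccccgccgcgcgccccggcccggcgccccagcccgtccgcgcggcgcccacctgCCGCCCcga
Fzd1 (chr5:4758217-4758466, minus strand): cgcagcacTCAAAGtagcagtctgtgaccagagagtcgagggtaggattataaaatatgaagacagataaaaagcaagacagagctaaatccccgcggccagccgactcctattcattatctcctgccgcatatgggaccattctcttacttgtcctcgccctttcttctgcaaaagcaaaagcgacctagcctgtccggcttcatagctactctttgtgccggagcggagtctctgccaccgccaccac
Fzd10 (chr5:128600856-128601105, plus strand): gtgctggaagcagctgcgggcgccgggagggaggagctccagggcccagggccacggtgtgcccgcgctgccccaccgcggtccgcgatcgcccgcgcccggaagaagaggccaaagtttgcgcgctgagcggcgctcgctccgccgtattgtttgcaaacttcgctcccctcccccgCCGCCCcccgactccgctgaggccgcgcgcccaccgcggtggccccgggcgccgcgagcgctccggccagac
Dkk1 (chr19:30549497-30549746, minus strand): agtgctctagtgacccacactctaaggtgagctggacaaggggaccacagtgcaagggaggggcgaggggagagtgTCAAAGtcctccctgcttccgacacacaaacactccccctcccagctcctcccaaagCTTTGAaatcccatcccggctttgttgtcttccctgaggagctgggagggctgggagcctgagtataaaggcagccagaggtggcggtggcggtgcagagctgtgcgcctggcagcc
Dkk2 (chr3:132085042-132085291, plus strand): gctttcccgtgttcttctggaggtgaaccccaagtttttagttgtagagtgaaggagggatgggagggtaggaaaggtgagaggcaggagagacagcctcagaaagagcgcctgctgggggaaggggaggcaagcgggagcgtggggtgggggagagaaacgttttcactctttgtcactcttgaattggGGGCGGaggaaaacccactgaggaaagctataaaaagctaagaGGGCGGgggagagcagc

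Such sequences were at hand for 27 of the 40 genes, and the same 250 bases for 27025 genes in all. The Tcf/Lef core in the form CTTTGA was in 4 of the 27 (14.8%), those of Dkk1, Frzb, Fzd1 and Wnt11, and in 14.0% of all promoters. The sequence before Dkk1 holds it 2 times and that before Fzd1 holds it 1 time, as the capitals show. The GC box was in 21 of the 27 (77.8%) and in 32.9% of all, with 8 copies, some overlapping, before Wnt4 and none before Fzd1 and Dkk1. The median number of CpG dinucleotides was 22 in the 27 sequences (middle 50% of genes 15 to 35.5) and 6 in all promoters (2 to 16). The GATA motif AGATAA, which reads TTATCT on the other strand, was in 3 of the 27 (11.1%) and in 10.3% of all. The TATA box TATAAA, which reads TTTATA on the other strand, was in 5 (18.5%) and in 13.0%. A match describes letters in this window and shows no binding.

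At day 9 most Wnt pathway genes of these families stood higher than in mESC. Of the 35 tested genes 21 rose, 8 fell and 6 were not called, where 41.0% of all tested genes were called, 20.1% higher and 21.0% lower. The median change was 1.29, against −0.16 over all tested genes. At day 14 against mESC 22 rose, 4 fell and 9 were not called, where 46.8% of all genes were called (22.8% higher, 24% lower). The median was 1.74, or 1.42 with genes below background in a group set at their bound, against −0.19 over all genes. The 4 mESC arrays did not overlap with the 4 arrays of day 9 for 31 of the 35 genes, nor with those of day 14 for 31, where 78.6% and 83.9% of all genes did not overlap. The counts depend on the background filter. Wnt2, Wnt4, Wnt5a, Wnt9b, Dkk1 and Dkk2 passed it through their day 9 and day 14 arrays alone, which favoured a rise against mESC. Sfrp4 and Wnt10a passed through mESC and day 14 alone, which favoured a low day 9. Of the 35 genes 25 passed in every group. With probes above background on all 12 arrays, 16 were higher and 6 lower at day 9, and 14 higher and 3 lower at day 14 against mESC.

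Between the days fewer genes changed. At day 14 against day 9, 11 of the 35 rose, 6 fell and 18 were not called, where 13.8% of all genes were called (10.2% higher, 3.60% lower). The median change was 0.13, against −0.09 over all genes, and the 8 arrays of the 2 days did not overlap for 23 of the 35, where 57.4% of all genes did not. The 2 comparisons with mESC share their control arrays and the third shares the other arrays with both, so they are not independent. The commonest course was a rise by day 9 with no called change afterwards, found for 12 genes, of which 6 are Frizzled receptors. Another 5 genes rose in both steps (Dkk2, Sfrp2, Wnt4, Wnt5b and Wnt9a), 4 rose and then fell (Dkk1, Fzd7, Sfrp5 and Wnt2), and 3 fell and then rose (Wif1, Wnt6 and Wnt10a).

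**Figure D1:**
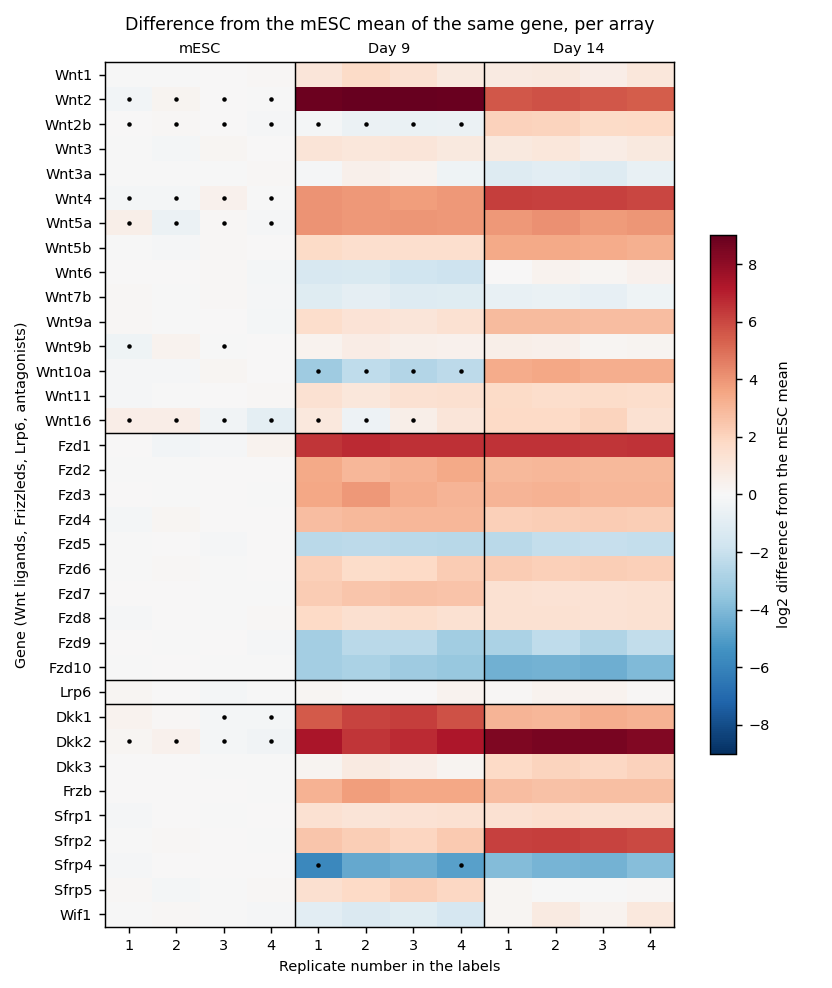
Colour gives the log2 difference of each array from the mean of the 4 mESC arrays for the same gene, for the 35 tested genes in rows and the 12 arrays in columns, and a dot marks a value not well above background. Wnt2, Fzd1, Dkk1 and Dkk2 are dark red at day 9, Wnt4, Sfrp2 and Dkk2 are darker at day 14 than at day 9, and Sfrp4 and Fzd10 are blue on all 8 arrays of both days.

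Among the ligands Wnt2, which marks early cardiac and lung mesoderm, rose from below background and then fell. Its mESC arrays read −5.84, −5.37, −5.58 and −5.66, none well above background. The day 9 arrays read 3.24, 3.35, 3.42 and 3.27, and those of day 14 read 0.01, 0.08, −0.05 and −0.14. The groups did not overlap, and day 9 was highest on all 4 arrays. Wnt2 was at least 405-fold higher at day 9 and at least 39.9-fold higher at day 14 than in mESC (adjusted p = 1.86e-14 and 3.3e-13), and it fell by 3.34 ± 0.09 from day 9 to day 14 (adjusted p = 2.67e-10).

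Wnt4, a ligand of developing kidney and gonad, rose in both steps. It read −5.87, −5.89, −5.28 and −5.73 in mESC, all below background, −1.66, −1.80, −1.90 and −1.76 at day 9, and 0.56, 0.45, 0.44 and 0.28 at day 14. The 3 groups followed each other without overlap. It was at least 12.0-fold higher at day 9 and at least 55.6-fold higher at day 14 than in mESC, with a further rise of 2.22 ± 0.12 between the days (adjusted p = 6.74e-08).

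Wnt5b and Wnt9a took the same course with smaller steps. Wnt5b, a relative of the non-canonical ligand Wnt5a, read −2.50, −2.55, −2.37 and −2.45 in mESC, −0.76, −0.99, −0.99 and −0.99 at day 9 and 0.91, 0.91, 0.88 and 0.73 at day 14. It rose by 1.54 ± 0.07 and then by 1.79 ± 0.07, and another probe moved by 1.30 and 1.71. Wnt9a read −2.61, −2.75, −2.68 and −2.88 in mESC, −1.13, −1.49, −1.62 and −1.33 at day 9, and 0.11, 0.14, 0.02 and 0.08 at day 14. For both ligands all arrays of day 14 lay above all of day 9, and those above all of mESC. Wnt9a rose by 1.34 ± 0.10 and then by 1.48 ± 0.10, while its other probe was not well above background on any array.

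Wnt5a, the main ligand of the non-canonical branch, rose by day 9 and then held its level. It read −6.31, −7.40, −6.72 and −6.96 in mESC, all below background. It read −2.83, −2.91, −2.88 and −2.97 at day 9 and −2.91, −2.75, −3.04 and −2.90 at day 14, and the arrays of the days overlapped. It was at least 5.52-fold higher than in mESC on each day (adjusted p = 1.6e-09 and 1.3e-09). Wnt11, another non-canonical ligand and one studied for its part in heart formation, rose from −1.27 ± 0.08 (SD, n = 4) in mESC to 0.03 ± 0.17 at day 9 and 0.37 ± 0.06 at day 14, changes of 1.29 ± 0.08 and 1.63 ± 0.08 against mESC.

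Wnt10a and Wnt6, ligands of ectoderm and of developing skin and teeth among other sites, fell and then rose. Wnt10a read −3.71, −3.70, −3.43 and −3.59 in mESC, −6.78, −5.88, −6.26 and −5.96 at day 9, where no array was above background, and −0.28, −0.12, −0.33 and −0.34 at day 14. It was at least 4.42-fold lower at day 9 than in mESC, at least 44.7-fold higher at day 14 than at day 9, and 3.34 ± 0.17 above mESC at day 14 (adjusted p = 2.99e-09). Wnt6 dipped less: it read −2.51, −2.51, −2.44 and −2.71 in mESC, −3.98, −3.88, −4.34 and −4.39 at day 9, and −2.53, −2.23, −2.36 and −2.13 at day 14. Day 9 lay below both other groups on all arrays, and mESC and day 14 overlapped. Wnt6 changed by −1.61 ± 0.13 and then by 1.83 ± 0.13, and the difference of day 14 from mESC was 0.23 ± 0.13 (adjusted p = 0.116).

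Wnt2b and Wnt16 passed the background filter through their day 14 arrays alone. The filter thus favoured a rise at day 14 for both, and the counts of genes that rose at day 14 include them. Against mESC the same limit holds for the genes named above that passed through both later groups. Wnt2b, the closest relative of Wnt2, read −7.35, −7.27, −7.35 and −7.49 in mESC and −7.57, −7.90, −7.95 and −7.87 at day 9, all below background, and −5.28, −5.38, −5.64 and −5.55 at day 14, all above it. It was at least 1.22-fold higher at day 14 than at day 9 (adjusted p = 6.67e-09), and it was called higher than in mESC too, with a bound that gives no fold. Wnt16 was well above background on no mESC array, 1 array of day 9 and all 4 of day 14, with means of −6.15 ± 0.73, −5.64 ± 0.70 and −4.41 ± 0.27 (SD, n = 4). It was at least 1.94-fold higher at day 14 than in mESC. Its rise from day 9 (1.23 ± 0.39, adjusted p = 0.017) was 0.90 and no longer called without day 9 replicate 2.

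The canonical ligands Wnt1, Wnt3 and Wnt3a moved less. Wnt1 rose from −4.58 ± 0.07 (SD, n = 4) in mESC to −3.30 ± 0.37 at day 9 and stood at −3.74 ± 0.18 at day 14, with a change of 1.28 ± 0.16 at day 9. Wnt3, needed for the primitive streak, read −4.32 ± 0.16, −3.28 ± 0.13 and −3.45 ± 0.15, and its change of 1.04 ± 0.10 at day 9 lay just past the threshold. It was 0.97 with quantile normalization, 0.91 with median scaling, 1.00 without day 9 replicate 1 and 0.98 without mESC replicate 2, and not called in these. Another probe of Wnt3, above background on 2 mESC arrays, moved by 2.01 at day 9 and by 1.74 at day 14.

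Wnt3a was the 1 ligand that fell only between the days, with means of −2.91 ± 0.07 (SD, n = 4), −2.82 ± 0.38 and −3.89 ± 0.25. Its change of −1.07 ± 0.17 (adjusted p = 0.000265) was −0.95 without day 9 replicate 2 and −0.99 without day 9 replicate 3, and not called in either. Against mESC it was not called at day 14 (−0.98 ± 0.17), but it was with quantile normalization (−1.23), with median scaling (−1.30), without day 14 replicate 4 (−1.10) and without mESC replicate 2 (−1.0). Wnt7b fell from −2.15 ± 0.10 to −3.19 ± 0.15 at day 9 and read −2.76 ± 0.15 at day 14, with a change of −1.04 ± 0.09 at day 9 that was −0.99 and not called with the percentile taken over probes. Wnt9b read −5.24 ± 0.29, −4.79 ± 0.15 and −4.89 ± 0.17 and was called in no comparison.

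Across the family 8 of the 15 tested ligands rose and 3 fell at day 9, 9 rose and none fell at day 14 against mESC, and 7 rose and 2 fell between the days. The median change of the ligands was 1.04 at day 9 and 1.74 at day 14, or 0.95 at day 14 with 5 ligands below background in a group at their bound. Of the 4 ligands not tested, Wnt7a and Wnt10b were well above background on 1 array of day 14 each, and Wnt8a and Wnt8b on none. Many of these calls rest on dim signals. With the normexp background correction 9 of the ligand calls at day 9 were lost, and those of Wnt2 and Wnt4 alone were kept. The lost calls were Wnt1 (0.28), Wnt3 (0.22), Wnt5a (0.64), Wnt5b (0.92), Wnt6 (−0.64), Wnt7b (−0.54), Wnt9a (0.76), Wnt10a (−0.65) and Wnt11 (1.00). Wnt2b (0.47), Wnt5a (0.92) and Wnt16 (0.47) were lost at day 14 against mESC, and Wnt2b (0.61), Wnt3a (−0.09), Wnt6 (0.98) and Wnt16 (0.57) between the days. Wnt2 stood at 5.63 and 2.51 on the 2 days against mESC with that correction, and Wnt4 at 1.26 and 2.98, all still called. These sizes are smaller than the bounds given above for Wnt2 and Wnt4. With the same correction the sizes of Wnt5a, Wnt10a and Wnt16 were also smaller than their bounds.

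**Figure D2:**
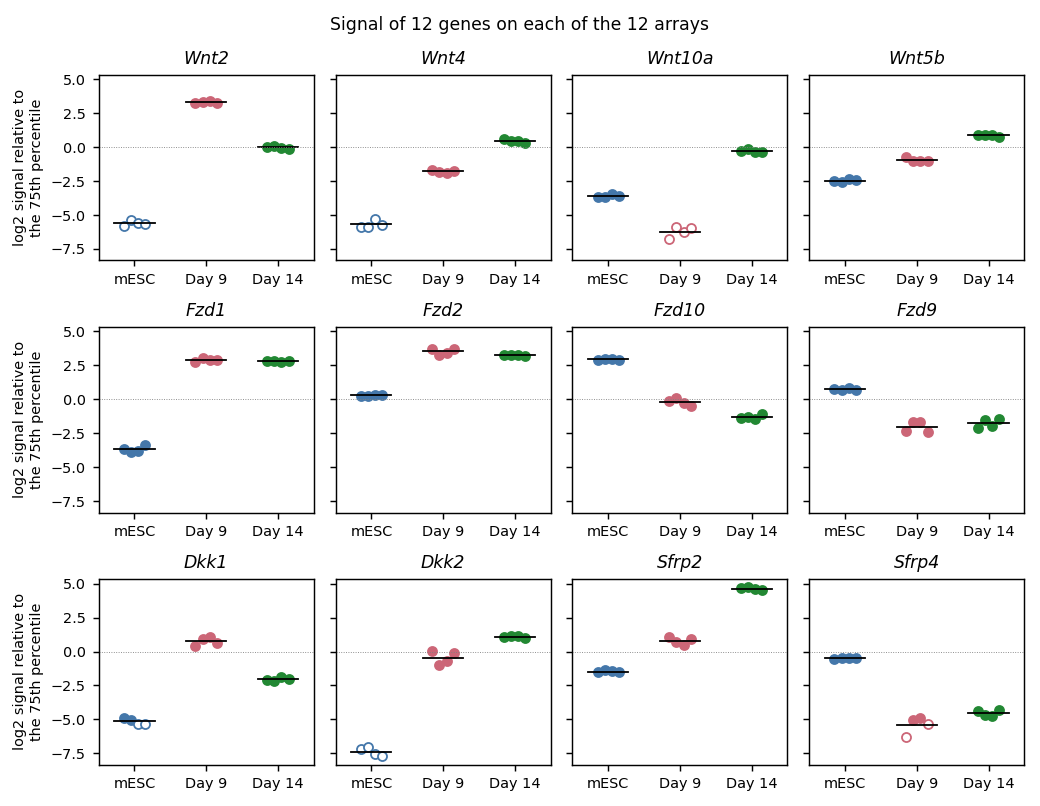
Each point is 1 array: log2 signal relative to the 75th percentile of the array, for 4 ligands, 4 Frizzled receptors and 4 antagonists, with the group mean as a line and open points for values not well above background. Wnt2 sits between 3.24 and 3.42 at day 9, above every other array, Wnt10a is lowest at day 9, Fzd10 steps down from between 2.91 and 3.0 in mESC to between −1.46 and −1.06 at day 14, and Sfrp2 climbs in both steps.

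Some ligand genes lie side by side in the genome, and their courses could be set beside each other. In the GRCm38.p6 annotation 4 pairs have no protein-coding gene between them: Wnt6 and Wnt10a on chromosome 1, Wnt3a and Wnt9a and also Wnt9b and Wnt3 on chromosome 11, and Wnt1 and Wnt10b on chromosome 15. Wnt6 and Wnt10a were both called lower at day 9 and higher from day 9 to day 14. Wnt3a and Wnt9a were called in opposite directions between the days, at −1.07 ± 0.17 and 1.48 ± 0.10. Wnt9b was not called where Wnt3 was, at day 9, and Wnt10b was not tested. With normexp correction the day 9 changes of Wnt6 (−0.64), Wnt10a (−0.65) and Wnt3 (0.22) were not called. Nor were the later changes of Wnt6 (0.98) and Wnt3a (−0.09), while those of Wnt10a (2.67) and Wnt9a (1.18) still were. These pairs were picked by position and no test of a difference between neighbours was made.

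**Figure D3:**
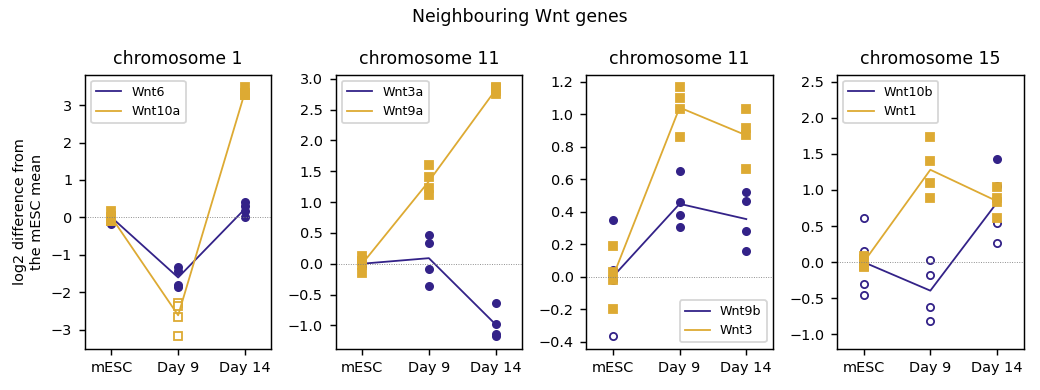
Points give each array and lines the group means, as the log2 difference from the mESC mean of the same gene, for the 4 pairs of neighbouring Wnt genes, with open points for values not well above background. Wnt6 and Wnt10a both dip at day 9, while Wnt9a lies above Wnt3a at both days, and each panel has its own scale.

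All 10 Frizzled receptors were called at both days against mESC, 7 higher and 3 lower, where 41.0% and 46.8% of all genes were called. The 7 and the 3 were the same genes on both days, and both comparisons use the same mESC arrays. The median change was 2.22 at day 9 and 1.77 at day 14. Between the days none rose and 2 fell, where 10.2% of all genes rose and 3.60% fell. All 10 had 4 arrays well above background in every group, so no bounds were needed here.

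Fzd1 had the largest change of a receptor. It read −3.63, −3.91, −3.79 and −3.40 in mESC, 2.73, 3.01, 2.88 and 2.89 at day 9, and 2.79, 2.80, 2.75 and 2.81 at day 14. The days overlapped and lay far above mESC, with changes of 6.56 ± 0.10 (adjusted p = 2.23e-13) and 6.47 ± 0.10 (adjusted p = 1.97e-13), or 94.2-fold and 88.7-fold. With the normexp correction these changes were 4.96 and 4.75 on the log2 scale, still called. Between the days it moved by −0.09 ± 0.10 (adjusted p = 0.458).

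Fzd2 and Fzd7, which can pass both canonical and non-canonical signals, rose as well. Fzd2 read 0.26, 0.27, 0.33 and 0.32 in mESC, 3.71, 3.30, 3.43 and 3.68 at day 9, and 3.24, 3.25, 3.24 and 3.20 at day 14, with changes of 3.24 ± 0.08 and 2.94 ± 0.08. Fzd7 read −0.74, −0.73, −0.77 and −0.80 in mESC, 1.55, 1.71, 1.85 and 1.77 at day 9, and 0.58, 0.53, 0.52 and 0.58 at day 14. Its groups did not overlap and day 9 was highest. It rose by 2.48 ± 0.06 at day 9 and lay 1.31 ± 0.06 above mESC at day 14, which was 0.99 and not called with median scaling. Its fall of 1.17 ± 0.06 between the days depended on the probe: the other probe moved by −0.30, and by 2.78 and 2.48 against mESC.

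Fzd3, Fzd4 and Fzd6 also rose. Fzd3, a receptor known for axon guidance and planar polarity, read −4.34, −4.41, −4.33 and −4.39 in mESC, −0.90, −0.45, −1.11 and −1.29 at day 9, and −1.28, −1.21, −1.41 and −1.37 at day 14. Fzd4, which also binds the non-Wnt ligand Norrin, read −1.36, −1.04, −1.19 and −1.19 in mESC, 1.58, 1.71, 1.80 and 1.78 at day 9, and 0.95, 1.02, 1.10 and 0.98 at day 14. Fzd6, another polarity receptor, read −2.72, −2.60, −2.71 and −2.66 in mESC, −0.53, −1.0, −0.88 and −0.41 at day 9, and −0.36, −0.54, −0.48 and −0.54 at day 14. In these 3 genes both days lay above mESC on every array, and for Fzd4 day 9 also lay above day 14. The changes at day 9 and day 14 were 3.43 ± 0.14 and 3.05 ± 0.14 for Fzd3, 2.92 ± 0.07 and 2.21 ± 0.07 for Fzd4, and 1.96 ± 0.12 and 2.19 ± 0.12 for Fzd6. The other probes of Fzd3 were below background on all mESC arrays and give no measured change against mESC. Fzd8 rose from −3.77 ± 0.08 (SD, n = 4) to −2.23 ± 0.19 and −2.41 ± 0.06, changes of 1.54 ± 0.09 and 1.36 ± 0.09.

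The receptors that fell were Fzd5, Fzd9 and Fzd10. Fzd10 read 2.91, 3.0, 2.94 and 2.91 in mESC, −0.11, 0.07, −0.27 and −0.47 at day 9, and −1.41, −1.30, −1.46 and −1.06 at day 14. Its groups did not overlap, and it was the 1 gene of the 35 called lower in both steps, by −3.13 ± 0.11 (adjusted p = 2.32e-10) and then −1.11 ± 0.11 (adjusted p = 7.62e-06). The other probe of Fzd10 moved by −3.20 and then by −0.87, and with the mean over both probes the second step was −0.99 and not called.

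Fzd9 read 0.79, 0.72, 0.80 and 0.67 in mESC, −2.30, −1.71, −1.68 and −2.38 at day 9, and −2.10, −1.52, −1.93 and −1.48 at day 14. Fzd5, a receptor that acts in eye and yolk sac development, read −1.89, −1.78, −1.94 and −1.79 in mESC, −4.30, −4.21, −4.26 and −4.38 at day 9, and −4.26, −3.98, −3.94 and −3.99 at day 14. For both, mESC lay above the 8 other arrays and the days overlapped. Fzd9 changed by −2.76 ± 0.18 and −2.50 ± 0.18, and Fzd5 by −2.44 ± 0.07 and −2.19 ± 0.07, or −1.84 and −1.57 on another probe. With normexp correction Fzd8 at both days (0.62 and 0.78), Fzd5 at day 14 (−0.58) and the second step of Fzd10 (−0.80) were not called, and Fzd3 stood at 1.64 and 1.47.

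Lrp6, the co-receptor of the canonical branch, read −2.76 ± 0.13 (SD, n = 4) in mESC, −2.62 ± 0.14 at day 9 and −2.55 ± 0.12 at day 14. Its differences from mESC were 0.13 ± 0.09 (adjusted p = 0.18) and 0.20 ± 0.09 (adjusted p = 0.0505), and its groups overlapped in every comparison.

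**Figure D4:**
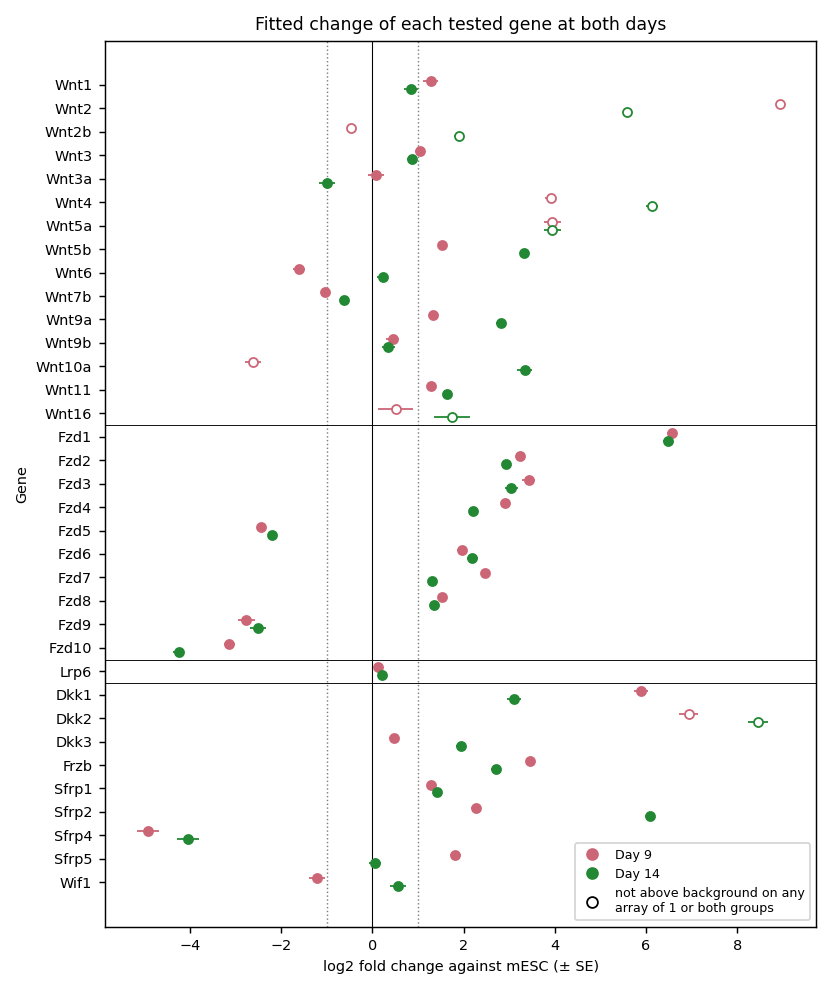
Points are log2 fold changes against mESC ± SE for the 35 tested genes at day 9 and day 14, with dotted lines at the size needed for a call and open points where no array of 1 or both groups was well above background, so that the fitted size is no measured fold. All 10 Frizzled receptors lie outside the dotted lines at both days, Fzd5, Fzd9 and Fzd10 to the left, and Lrp6 lies near 0.

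Among the antagonists Dkk1 and Dkk2 both rose steeply and then parted. Dkk1, which blocks the co-receptors, read −4.86, −5.07, −5.35 and −5.30 in mESC (2 arrays above background), 0.39, 0.93, 1.06 and 0.61 at day 9, and −2.08, −2.19, −1.91 and −1.99 at day 14. Its groups did not overlap and day 9 was highest. It rose by 5.89 ± 0.15 (adjusted p = 1.28e-11) and then fell by 2.79 ± 0.15 (adjusted p = 5.11e-08), which left it 3.10 ± 0.15 above mESC. Another probe fell by 2.32 between the days and was below background on all mESC arrays.

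Dkk2, which can block or activate the pathway depending on the setting, read −7.20, −7.00, −7.58 and −7.72 in mESC, all below background. It read 0.01, −0.97, −0.67 and −0.12 at day 9 and 1.06, 1.14, 1.14 and 0.98 at day 14. Day 14 was highest on all arrays, and day 9 spread over about 1 on the log2 scale. Dkk2 was at least 30.3-fold higher at day 9 and at least 86.9-fold higher at day 14 than in mESC, and it rose by 1.52 ± 0.22 between the days (adjusted p = 9.5e-05). Dkk3, a divergent member of the family, read −1.12, −1.13, −1.17 and −1.18 in mESC, −0.90, −0.37, −0.58 and −0.87 at day 9, and 0.61, 0.87, 0.75 and 0.93 at day 14. Its change was 0.47 ± 0.11 at day 9, which was not called, and 1.94 ± 0.11 at day 14. Dkk4 was below background on all 12 arrays.

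Sfrp2, a secreted Frizzled-related protein of mesenchymal cells, rose in both steps. It read −1.54, −1.37, −1.47 and −1.53 in mESC, 1.05, 0.71, 0.48 and 0.91 at day 9, and 4.66, 4.72, 4.57 and 4.50 at day 14. The groups followed each other without overlap, with a rise of 2.26 ± 0.11 and then of 3.83 ± 0.11 (adjusted p = 3.43e-10), in all 68.1-fold. Sfrp1 was bright in all groups, at 3.15 ± 0.06 (SD, n = 4), 4.45 ± 0.12 and 4.57 ± 0.05, and rose by 1.29 ± 0.06 and 1.42 ± 0.06 against mESC.

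Frzb, also known as Sfrp3, rose by day 9. It read −3.38, −3.40, −3.41 and −3.46 in mESC, −0.26, 0.36, 0.06 and 0.05 at day 9, and −0.66, −0.77, −0.73 and −0.67 at day 14, changes of 3.46 ± 0.10 and 2.70 ± 0.10. Sfrp5, known from the early heart field and foregut, was raised at day 9 alone: it read −3.37, −3.65, −3.52 and −3.41 in mESC, −2.04, −1.69, −1.31 and −1.63 at day 9, and −3.32, −3.51, −3.50 and −3.37 at day 14. The mESC and day 14 arrays of Sfrp5 overlapped. It rose by 1.82 ± 0.13 and then fell by 1.76 ± 0.13.

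Sfrp4 went the other way and fell on both days against mESC. It read −0.56, −0.46, −0.48 and −0.45 in mESC, −6.26, −5.07, −4.91 and −5.34 at day 9, where 2 arrays were above background, and −4.40, −4.67, −4.72 and −4.29 at day 14. All 8 arrays of the 2 days lay below all mESC arrays. It changed by −4.91 ± 0.24 (adjusted p = 3.2e-09) and −4.03 ± 0.24 (adjusted p = 1.56e-08) against mESC. The step from day 9 to day 14 was 0.88 ± 0.24 and not called, and 1.04 and called without day 9 replicate 3. Wif1, the Wnt inhibitory factor, fell from −3.33 ± 0.06 (SD, n = 4) to −4.55 ± 0.24 at day 9 and reached −2.78 ± 0.39 at day 14, changes of −1.22 ± 0.18 and then 1.77 ± 0.18.

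Of the 9 tested antagonists 6 rose and 2 fell at day 9, 6 rose and 1 fell at day 14 against mESC, and 4 rose and 2 fell between the days. The median changes were 1.82, 1.94 and 0.88. With normexp correction the calls of Sfrp5 (0.85 and −0.58) and Wif1 (−0.39 and 0.87) in both steps were lost, and Dkk1 stood at 3.14, Dkk2 at 2.55 and Sfrp4 at −2.02 at day 9. For Dkk2 this log2 size is smaller than its bound of 30.3-fold. In all 24 of the 72 calls in the 3 comparisons were lost with that correction, and of the 48 that it kept 18 had a log2 change smaller by more than 1.5 times, and 27 a fold smaller by more than 1.5 times.

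The spread between replicates was not even over the groups. The median SD of these genes, over those well above background on all 4 arrays of the group, was 0.08 in mESC, 0.20 at day 9 and 0.11 at day 14. Of the 35 tested genes 24 had their largest SD at day 9. Since the model gives the 3 groups 1 variance per gene, the printed SE may understate the error where day 9 is involved and overstate it elsewhere. The heart marker sums given above were also widest at day 9.

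The rest of the pathway was described from lists of named genes. In the list of Wnt secretion and co-receptors 6 of 13 tested genes rose and 2 fell at day 9, and 6 rose and 1 fell at day 14. Wls, the carrier that takes Wnt proteins to the cell surface, rose by 3.73 ± 0.08 and 3.70 ± 0.08. Gpc3, a surface proteoglycan that binds Wnts, rose by 4.03 ± 0.06 and 4.12 ± 0.06, and Tspan12, a partner of Fzd4, by 5.29 ± 0.12 and 4.00 ± 0.12.

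R-spondins and their Lgr receptors raise Wnt signals by removing ligases that take down Frizzleds. Of 8 tested genes of this list 6 rose at day 9, 7 rose at day 14 and none fell, with 3 higher between the days, where 20.1%, 22.8% and 10.2% of all genes were called higher. Rspo3 was at least 4.47-fold and at least 6.60-fold higher than in mESC, and Rspo2 rose by 3.10 ± 0.29 and 3.80 ± 0.29. Lgr5, a stem cell marker in gut, was at least 1.36-fold and at least 3.11-fold higher. The median changes of this list were 2.04 and 2.63 as fitted, or 1.46 and 1.66 with Rspo3 and Lgr5 at their bounds.

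In the list of other Wnt antagonists 5 of 9 rose and 2 fell on each day against mESC. Shisa3, which holds back Frizzled maturation, was at least 134-fold and at least 68.9-fold higher. Trabd2b, a protease that inactivates Wnts, was at least 38.6-fold and at least 48.3-fold higher, and Sostdc1, which binds BMPs and the co-receptors, was at least 1.01-fold and at least 26.6-fold higher.

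Inside the cell the list of beta-catenin, Dishevelled and the destruction complex had few calls. Of 13 genes 1 rose and 1 fell at day 9, none rose and 2 fell at day 14, and none was called between the days. Btrc, the ligase subunit that marks beta-catenin for breakdown, changed by −1.67 ± 0.07 and −1.52 ± 0.07. The casein kinase gene Csnk1d changed by 1.11 ± 0.04 at day 9 and its relative Csnk1e by −1.46 ± 0.06 at day 14. These shares, 2 of 13 on each day, lie under the 41.0% and 46.8% called over all genes.

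Of 8 Tcf/Lef factors and co-activators 3 rose and 1 fell at day 9, and 4 rose and 1 fell at day 14. Lef1 rose by 2.30 ± 0.10 and 1.42 ± 0.10 and Tcf7 changed by −1.64 ± 0.07 and −3.62 ± 0.07, while Bcl9, a beta-catenin co-activator, rose by 2.05 ± 0.09 and 1.96 ± 0.09. Of 11 known beta-catenin target genes 4 rose and 3 fell on each day, where 41.0% and 46.8% of all genes were called. Ccn4 was at least 528-fold and at least 578-fold higher and Cdx2 at least 45.8-fold and at least 11.4-fold higher, whereas Cdx1 was at least 7.19-fold and at least 8.75-fold lower. Axin2, a widely used readout of the canonical branch, was chosen for mention after its values were seen: it changed by −0.56 ± 0.08 and −0.84 ± 0.08 and was not called. Of 12 planar polarity genes 3 rose and 2 fell at day 9 and 4 rose and 4 fell at day 14, where 41.0% and 46.8% of all genes were called. Among them Daam2 was at least 15.4-fold and at least 21.5-fold higher, Prickle1 rose by 3.84 ± 0.06 and 3.92 ± 0.06, and Celsr1 changed by −2.14 ± 0.17 and −1.42 ± 0.17.

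**Figure D5:**
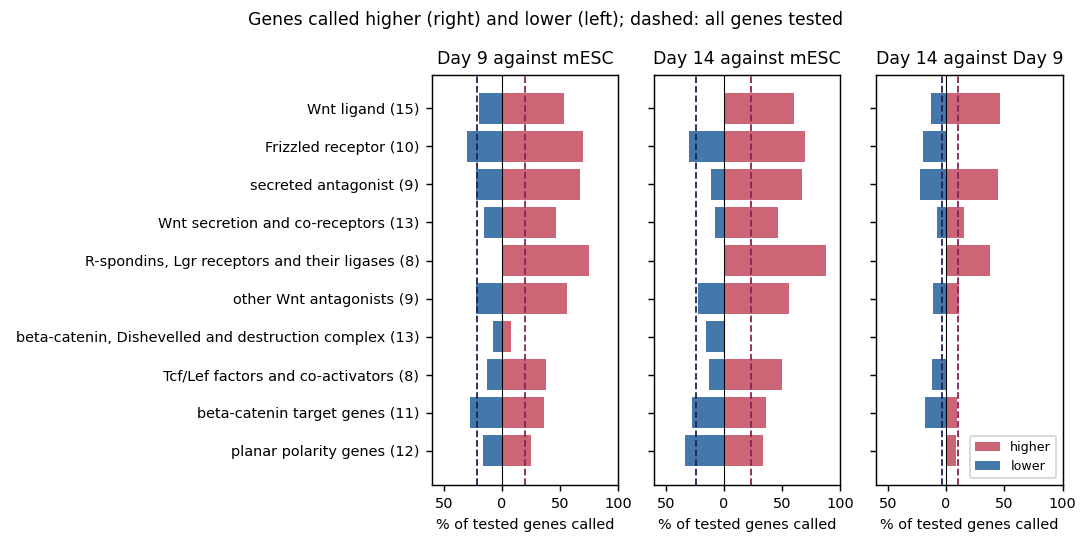
Bars give the percentage of tested genes called higher (right) and lower (left) in each list, with the number tested in brackets, and dashed lines the percentages over all tested genes. R-spondins and Lgr receptors have bars on the right alone in the 3 panels, and the list of beta-catenin, Dishevelled and the destruction complex has 2 of 13 genes called on each day against mESC.

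Markers of other cell types moved beside these genes, and their part in the results was not tested. All 8 pluripotency markers were lower on both days, among them Klf4, Zfp42 and Sox2, which changed by −3.85 ± 0.07, −6.52 ± 0.12 and −4.26 ± 0.19 at day 9. Between the days 3 of the 8 were lower and none higher, with a median change of −0.75. Klf4 moved by 0.69 ± 0.07 in that step and was not called, so the sums given above do not follow the other markers. All 10 cardiomyocyte markers were higher on both days, with Myl7 at 5.33 ± 0.13, Myh7 at 6.24 ± 0.21 and Tnnt2 at 6.70 ± 0.21 at day 9. Fibroblast markers were higher in 8 of 9 cases and lower in 1, Thy1, on both days. Their summed signal was 3.56 to 3.76 in mESC, where Col3a1, Dcn, Lum and Postn were below background, 256 to 448 at day 9 and 596 to 659 for day 14. The collagen gene Col1a2 was up by 8.13 ± 0.15 on day 9. Between the days 4 of the 9 fibroblast markers were higher and 1, Postn, was lower (−1.12 ± 0.29). Smooth muscle markers were higher in 7 of 8 cases on both days, with sums of 11.4 to 12.0, 139 to 160 and 107 to 119, and Tagln rose by 6.34 ± 0.08.

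Some marker lists moved between the days, the step in which 11 of the 35 genes rose, and a link with those genes was not tested. All 9 macrophage markers were higher at day 14 than at day 9, with sums of 1.49 to 1.76 in mESC, 0.415 to 0.532 at day 9 and 18.6 to 23.1 at day 14. Adgre1, C1qa, C1qc and Itgam were below background on all arrays of mESC and day 9, and C1qb rose by 3.18 ± 0.07 between the days. At day 9 against mESC 2 of the 9 were higher and 1, Cd68, was lower. Cd68 had means of 0.50, −3.61 and 1.02 in the 3 groups, so the sums of mESC and day 9 do not follow the other macrophage markers. Markers of epicardium and mesothelium were higher in 5 of 7 cases between the days, with sums of 5.13 to 5.61, 5.2 to 8.51 and 20.2 to 24.3. At day 9 against mESC 5 of the 7 were higher and 1, Msln, was lower. Msln, the mesothelin gene, had means of 2.29, −4.33 and 1.89 in the 3 groups, changes of −6.62 ± 0.13 and then 6.22 ± 0.13, so the sums do not follow the other markers. Between the days Aldh1a2 rose by 2.45 ± 0.10 and Upk3b by 2.14 ± 0.22. Wt1, Tcf21 and Upk1b were below background in mESC.

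Of the endothelial markers 6 of 8 were higher and 2 lower at day 9, and 5 were higher and 2 lower at day 14 against mESC. None was higher and 5 were lower at day 14 against day 9. The sums were 3.49 to 3.79, 5.75 to 8.13 and 3.53 to 3.95. The lower markers against mESC were Pecam1 (−3.58 ± 0.10 and −4.80 ± 0.10) and Eng (−1.40 ± 0.09 and −1.37 ± 0.09), so the sums do not follow the other markers. Cdh5, Emcn and Tie1 were below background in mESC. Between the days Wnt2, Wnt3a, Fzd7, Fzd10, Dkk1 and Sfrp5 fell too, and a link with these markers was not tested. The falls of Fzd7 and Fzd10 depended on the probe, and those of Wnt3a, Fzd10 and Sfrp5 were not called with normexp correction. Markers of visceral endoderm and liver were higher in 8 of 9 cases on both days, with sums of 0.381 to 0.498, 42.6 to 72.6 and 194 to 210, and Afp was at least 1611-fold higher at day 9. Between the days 3 of the 9 were higher, 1, Apob, was lower and 5 were not called. The median change was −0.19 in that step, so the sums do not follow the other markers. Neural markers were higher in 3 and lower in 1 of 8 cases on both days, with sums of 4.12 to 4.34, 3.81 to 5.62 and 4.82 to 5.76.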

How the data were processed

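Per the labels, Cy3-labelled cRNA was made from total RNA, and each array carried this 1 colour. Per the file headers, Agilent Feature Extraction 12.0.3.1 (version 12 in the submitters' processing notes) gave the deposited processed signal of each spot, an intensity after background subtraction and spatial detrending with no scaling from array to array. Median spot and local background brightness were deposited as uncorrected intensities. The deposited quality columns are flags, per the file headers. The series' own table of intensities, as deposited, differed from them in 0 values.

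Each array had 45018 spots, 43379 of them not controls, for 41174 probes. Spots with an outlier flag were dropped, 0 were saturated, and log2 values of replicate spots were averaged. The 75th percentile of each array was subtracted. Testing required the background flag on 3 or more arrays of a group, and 28385 probes passed. Accessions were named through a RefSeq annotation of GRCm38.p6 (28223 probes named, 12951 not). The array's annotation uses mm9, so no gene positions are given beside those of the RefSeq promoters. Each gene was represented by its brightest tested probe, and 15560 of the 20875 genes had a symbol.

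Groups were compared with limma 3.58.1 in R 4.3.3 (group means over 12 arrays, moderated variances, two-sided tests, Benjamini-Hochberg adjustment over all genes). Arrays of a group correlated at 0.9893 or more across genes, which are not independent replicates. The number of arrays limits the precision. Statistics were tested on simulated data.

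The genes and lists were chosen with earlier results of these data known. Of the genes called, the 24 with the largest change are given array by array and the rest by group means. From each pathway list up to 3 called genes with the largest change are named, and from each marker list a choice of the 3 brightest. Alternatives were other scalings, background correction, filters, probe choices, variance models, the series table, the replicate block and leaving out each array. The slide could not enter as a block.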

Additional observations from a re-analysis of the deposited data

Results flagged for a closer look

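In the 93 groups of 4 arrays in which a tested gene was well above background on all 4, the highest or lowest array was checked for a gap from the other 3, and 4 stood apart, where chance marks about 1 in 20 groups. Wnt5b read −0.76 on day 9 replicate 1, against −0.99 on each of the others. Wnt7b read −2.97 on day 9 replicate 2, against −3.28 to −3.24. Fzd5 read −4.26 on day 14 replicate 1, against −3.99 to −3.94. Sfrp1 read 4.65 on day 14 replicate 2, against 4.54 to 4.56. No array was marked for more than 1 gene.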

How the results depend on the processing

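No call of the 35 genes changed direction in an alternative. Over all genes 8566 were called for day 9 and 9772 for day 14, both relative to mESC, and 2879 from one day to the next. They were 4753, 5849 and 1233 with normexp (offset 50), and 5481, 6420 and 1303 if a probe had to pass the background test 12 times, once an array. Of the genes described here 13 were higher and 4 lower at day 9 with normexp, 18 higher and 3 lower at day 14 against mESC, and 7 higher and 3 lower between the days. In that stricter setting, which tests fewer genes, 14 were higher at day 14 than in mESC and 6 than at day 9. Leaving out 1 array in turn gave 8542 to 8619, 9745 to 9794 and 2841 to 2925 calls over all genes. It gave 20 to 21 higher and 8 lower at day 9, 22 higher and 4 to 5 lower at day 14 against mESC, and 10 to 12 higher and 5 to 6 lower between the days. Beside normexp, scaling changed the calls of Fzd7, Wnt3, Wnt3a and Wnt7b, and probe choice those of Fzd7, Fzd10 and Wnt3, the last called at day 14 (1.31 with the mean over probes). The cause was not tested. The percentile over probes was an alternative chosen after seeing the data. Median scaling moved the median of all genes at day 14 against mESC from −0.19 to −0.51 and the share of calls that were higher from 48.7% to 36.4%, and between the days that share from 73.9% to 58.9%. Replicate numbers did not pair the arrays: deviations of same-numbered arrays correlated at −0.08 to 0.18, above 0.1 in 1 of 12 cases, and 3 of 12 correlated best with their own number. The replicate block changed no call of the 35 genes in the 3 comparisons. The slide as a block was not run, since each slide holds 1 group. Where signals were dim the sizes are limited: 13 called changes are bounds, which hold for the processed signal.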
